A study of Homo sapiens with 6 samples.

Results

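The transcriptional end of the Hippo pathway was followed through 10 genes in A549 cells after knockdown of GSE1. They were the rows of the deposited table, of 60612 in all, whose gene symbol is that of a coactivator (YAP1 and WWTR1, which encodes TAZ), a TEAD transcription factor (TEAD1 and TEAD4), a target gene (CCN1, CCN2 and ANKRD1), an angiomotin-like protein (AMOTL1 and AMOTL2) or the kinase LATS2. Each symbol matched 1 row. A549 is an established line of epithelial cells from a human lung adenocarcinoma. RNA was sequenced 48 hours after transfection, in 3 libraries of cells given a small interfering RNA (siRNA) against GSE1 (siGSE1) and in 3 of cells given a negative control siRNA (control), and no siRNA sequence was at hand. The labels do not say whether replicates were separate cultures, so p-values reflect library-to-library spread that may be technical.

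In the Hippo pathway, the kinases MST1 and MST2 (genes STK4 and STK3) activate LATS kinases, which phosphorylate YAP and TAZ and keep them out of the nucleus. When LATS activity is low, YAP and TAZ enter the nucleus, bind TEAD factors on DNA and raise transcription of genes such as CCN1, CCN2 and ANKRD1. LATS2 and AMOTL2 are both regulators and known targets, which closes a feedback loop. RNA levels alone do not report phosphorylation or the place of a protein in the cell.

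TEAD factors bind the core sequence GGAATG, so the RefSeq promoters of the genes (GRCh38.p14, 250 bases before to 50 after an annotated start, 5' to 3') are shown where they hold it on either strand, to set those letters beside the expression values that follow. Capitals mark GGAATG or, on the opposite strand, CATTCC. The windows are CCN2 (chr6:131951323-131951622, minus strand), ANKRD1 (chr10:90921038-90921337, minus strand), YAP1 (chr11:102110197-102110496, plus strand), LATS2 (chr13:21061537-21061836, minus strand) and the downstream one of a pair of AMOTL2 windows (chr3:134374398-134374697, minus strand).
CCN2: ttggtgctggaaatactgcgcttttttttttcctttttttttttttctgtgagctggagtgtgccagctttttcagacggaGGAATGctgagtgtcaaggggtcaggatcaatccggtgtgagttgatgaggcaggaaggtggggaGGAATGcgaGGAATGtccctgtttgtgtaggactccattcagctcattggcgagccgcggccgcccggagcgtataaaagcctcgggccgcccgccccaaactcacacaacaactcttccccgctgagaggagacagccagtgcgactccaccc
ANKRD1: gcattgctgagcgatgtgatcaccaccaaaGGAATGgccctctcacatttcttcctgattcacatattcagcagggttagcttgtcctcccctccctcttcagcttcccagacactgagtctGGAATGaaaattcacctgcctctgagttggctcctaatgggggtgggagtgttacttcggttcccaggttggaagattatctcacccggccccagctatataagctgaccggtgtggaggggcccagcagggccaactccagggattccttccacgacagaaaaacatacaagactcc
YAP1: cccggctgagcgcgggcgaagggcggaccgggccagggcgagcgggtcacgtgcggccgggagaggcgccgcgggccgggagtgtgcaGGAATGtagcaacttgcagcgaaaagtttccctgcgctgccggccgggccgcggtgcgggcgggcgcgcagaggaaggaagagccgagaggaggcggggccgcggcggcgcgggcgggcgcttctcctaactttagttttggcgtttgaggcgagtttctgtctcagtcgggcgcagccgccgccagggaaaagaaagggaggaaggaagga
LATS2: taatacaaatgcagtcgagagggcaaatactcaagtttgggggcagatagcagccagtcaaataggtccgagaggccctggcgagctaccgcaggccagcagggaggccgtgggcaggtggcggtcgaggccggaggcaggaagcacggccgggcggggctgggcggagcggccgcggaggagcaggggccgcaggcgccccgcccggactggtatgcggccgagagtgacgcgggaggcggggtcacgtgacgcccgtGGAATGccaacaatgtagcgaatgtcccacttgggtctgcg
AMOTL2: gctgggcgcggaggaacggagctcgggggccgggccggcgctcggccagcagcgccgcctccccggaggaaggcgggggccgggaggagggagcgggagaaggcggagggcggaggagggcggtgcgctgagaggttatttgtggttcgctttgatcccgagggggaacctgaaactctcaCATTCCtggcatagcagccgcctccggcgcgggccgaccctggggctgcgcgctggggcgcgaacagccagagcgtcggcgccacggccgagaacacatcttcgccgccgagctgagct

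Of the 10 genes, 7 matched the promoter table, with 9 windows, and TEAD1, TEAD4 and CCN1 did not. The core was found in 5 of those 7 genes and in 5 of the 9 windows, and in 14.0% of all 35116 promoter windows of the same length. Several of the 7 genes were listed as known YAP targets, so these shares are no test of enrichment. CCN2 held 3 copies, which begin at bases -169, -104 and -95 from the start site, and ANKRD1 held 2, at -220 and -128. YAP1 held 1 copy at -162, AMOTL2 1 at -69 and LATS2 1 at 10 bases into the transcript. The windows of WWTR1 and AMOTL1 and the other AMOTL2 window held none of these letters. The pattern TGANTCA, with any base at N and so looser than the AP-1 site TGA(C/G)TCA, was searched on both strands. It was found in ANKRD1 alone among the 7, at -195 and with no overlap with the TEAD core, and in 7.7% of all windows. The ANKRD1 match reads TGATTCA, which is not the AP-1 site itself. A match describes letters in a window and is no measure of binding.

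Library totals ran from 17521807 to 19914346 counts in siGSE1 cells and from 14475992 to 20755506 in control cells. GSE1 had 3.84, 4.06 and 3.73 FPKM (counts scaled to exonic length and library total) in siGSE1 cells, against 7.37, 8.06 and 7.92 in control cells, in keeping with the labels. Control replicate 2 stood apart. Compared gene by gene, its counts gave a chi-square of 9.99 and 8.85 for each degree of freedom against its fellow controls, which differed from each other by 4.49. The siGSE1 pairs gave 2.48 to 3.30. Epithelial markers summed to between 1516 and 1547 FPKM in siGSE1 cells and between 1569 and 2055 in control cells, carried by keratins KRT8 and KRT18, while EPCAM stayed at 0.45 to 0.81 FPKM in siGSE1 cells and 0.80 to 1.14 in control cells. Of the markers of other cell types, 5 of 6 leukocyte, 6 of 7 fibroblast and 5 of 6 endothelial genes were under 1 FPKM in every library, and the exceptions were CD14, COL1A1 and ESAM. CLDN4 (log2 fold change -0.72), KRT8 (-0.26) and KRT18 (-0.25) were called lower, 3 of 6 epithelial markers, against 9.02% of all genes tested. The endothelial ESAM was called higher (1.154). The keratin calls were lost in 8 (KRT8) and 9 (KRT18) of 17 alternatives, among them those without any 1 of the siGSE1 libraries (adjusted p of 0.054 to 0.13). KRT18 lost its call without control replicate 2 as well (0.0716). The part of these markers in the results was not tested. In bulk RNA, fewer cells of a type and less RNA per cell cannot be told apart.

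All 10 genes were expressed and passed the filter on low counts, with 106 to 6204 counts per library. After GSE1 knockdown, 4 were higher (YAP1, TEAD4, CCN1 and LATS2), 2 were lower (WWTR1 and AMOTL2) and 4 did not pass the test (TEAD1, CCN2, ANKRD1 and AMOTL1). The test was edgeR's quasi-likelihood test of siGSE1 against control over 15937 genes, with Benjamini-Hochberg adjustment and a threshold of 0.05. It called 19.9% of all genes, 10.9% higher and 9.02% lower. The median log2 fold change was 0.14 over the 10 genes and 0.00 over all genes tested, and the largest fold among the 10 was 1.498. siGSE1 and control values were fully apart in 6 of the 10 genes, and in 36.2% of all genes. With libraries scaled to a fixed sum of counts per length (TPM scaling), 21.8% of all genes were called. Of those calls 73.3% were higher, against 54.6% in the test as run, and 5 of the 10 genes were higher and 2 lower. Without control replicate 2, 6 of the 10 were higher and 2 lower, and 21.9% of all genes were called.

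**Figure D1:**
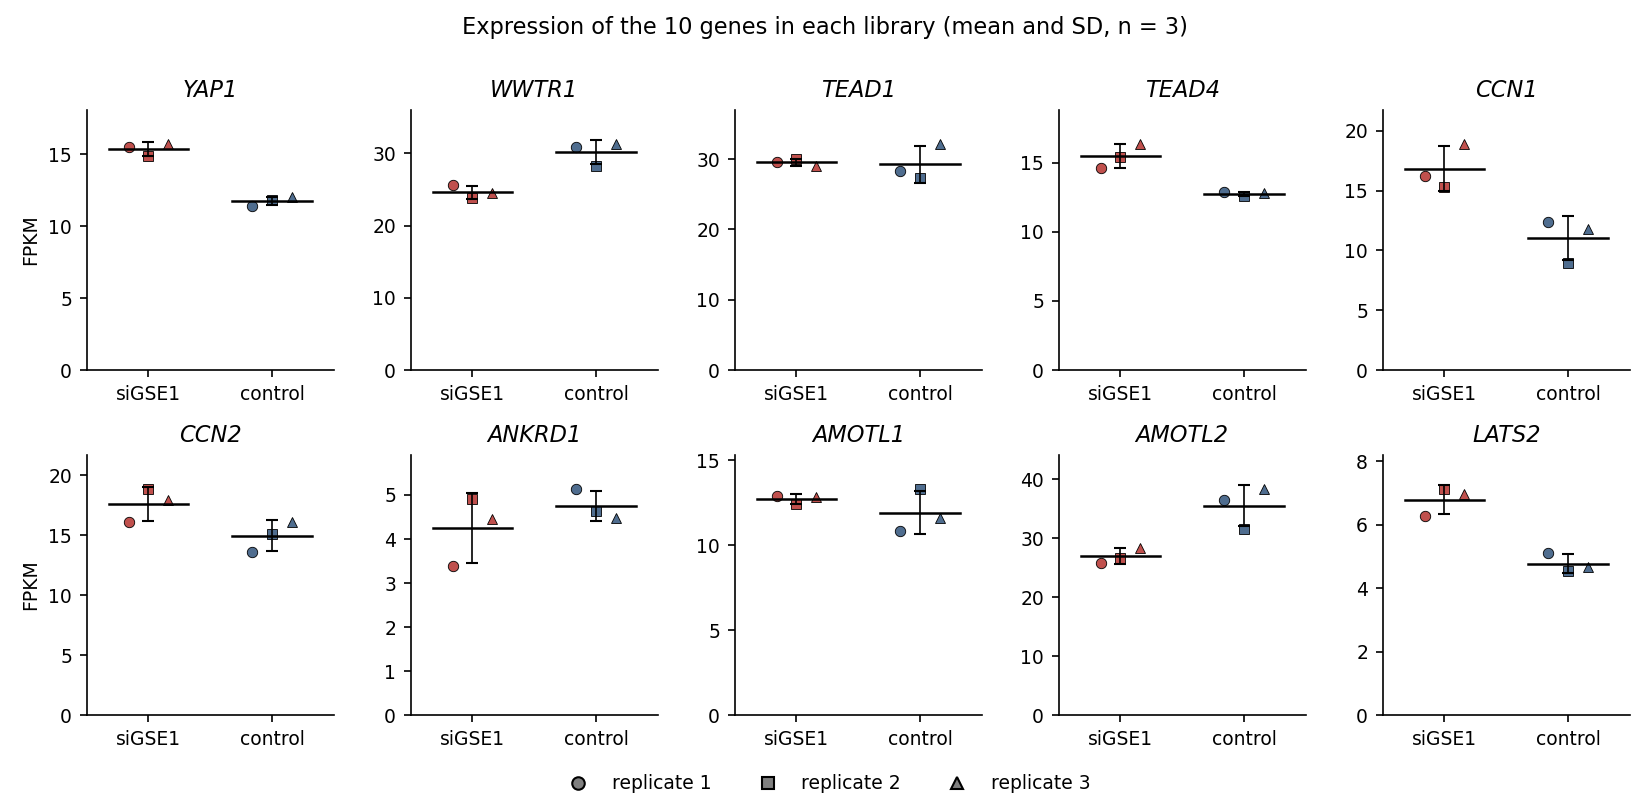
FPKM of each of the 10 genes (vertical axes, each starting at 0) in the 3 siGSE1 and 3 control libraries, with marker shapes for the replicates and black bars for the mean and SD. The groups are apart for YAP1, WWTR1, TEAD4, CCN1, AMOTL2 and LATS2 and overlap for the other 4.

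**Figure D2:**
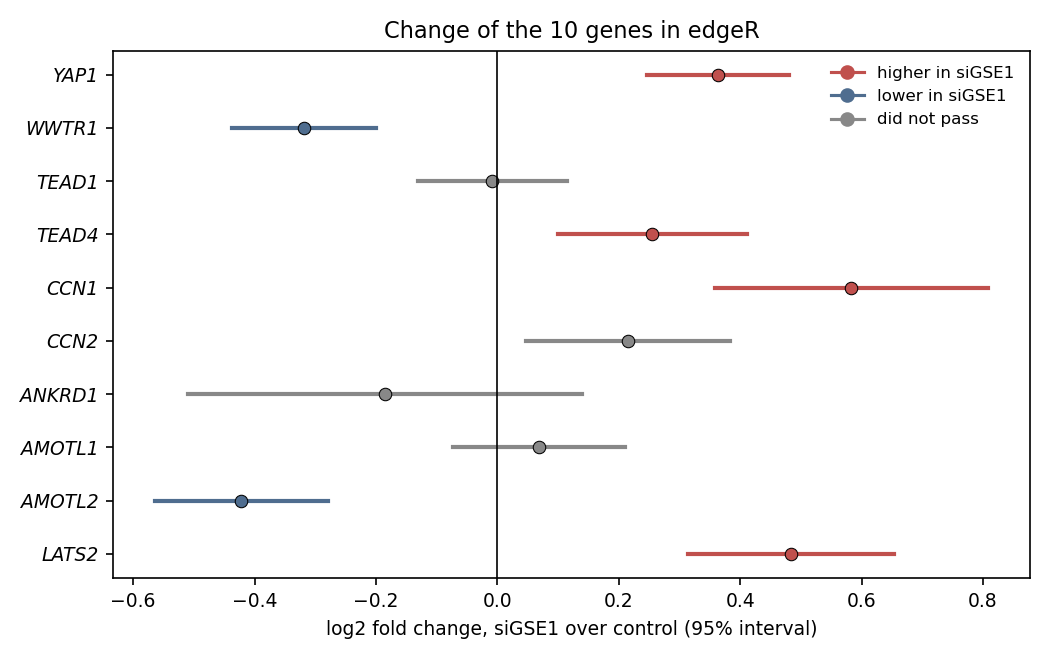
Log2 fold change of siGSE1 over control with its 95% interval from edgeR, for the 10 genes, coloured by call. CCN1 lies highest at 0.58 and AMOTL2 lowest at -0.42, and the intervals of TEAD1, ANKRD1 and AMOTL1 span 0.

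The coactivators moved in opposite directions. YAP1 (ENSG00000137693, chromosome 11, 102110447 to 102233424, plus strand, hg38), the better known of the pair, had 15.53, 14.84 and 15.73 FPKM in siGSE1 cells, against 11.43, 11.8 and 12 in control cells. Every siGSE1 value lay above every control value, and the spread within each group was small. The log2 fold change was 0.36 (SE 0.06, 95% interval 0.25 to 0.48, edgeR adjusted p = 2.26e-04), a 1.29-fold increase. WWTR1 (ENSG00000018408, chromosome 3, 149517235 to 149736714, minus strand), which encodes TAZ, had 25.59, 23.84 and 24.46 FPKM in siGSE1 cells, against 30.95, 28.25 and 31.36 in control cells. Here all siGSE1 libraries were below all control libraries. Its log2 fold change was -0.32 (SE 0.06, 95% interval -0.44 to -0.20, edgeR adjusted p = 8.12e-04).

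Added together, YAP1 and WWTR1 came to 40.0 ± 1.23 FPKM in siGSE1 cells and 41.9 ± 1.70 in control cells (SD, n = 3 each), ranges that overlap, while the make-up of the sum differed. YAP1 supplied 37.8%, 38.4% and 39.1% of it in siGSE1 replicates 1, 2 and 3, against 27.0%, 29.5% and 27.7% in the control replicates. WWTR1 remained the more abundant transcript per length in all 6 libraries. The ratio of YAP1 to WWTR1 averaged 0.624 ± 0.018 in siGSE1 cells and 0.390 ± 0.025 in control cells (SD, n = 3 each), a 1.60-fold difference between geometric means. An exact two-sided permutation test gave p = 0.1, the smallest that 3 libraries against 3 allow, and 0.167 after adjustment over the 5 pairs of related genes compared. Of the overlapping genes in the GENCODE 29 annotation, the antisense gene WWTR1-AS1 shares 795 exonic bases with WWTR1. It had at most 22 counts in a library, against at least 3745 for WWTR1. Only 2 of the 10 genes have the same start and end in GENCODE 29 as in the deposited annotation.

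TEAD1 was the most abundant of the TEAD factors, the DNA-binding partners of YAP and TAZ. TEAD1 (ENSG00000187079, chromosome 11, 12674421 to 12944737, plus strand) had 29.65, 30 and 28.97 FPKM in siGSE1 cells, against 28.25, 27.26 and 32.20 in control cells. The siGSE1 values fell inside the control range, and the log2 fold change was -0.01 (95% interval -0.13 to 0.11, edgeR adjusted p = 0.943). Its sign depends on the scaling and turns positive in several alternatives, with values between -0.06 and 0.05. TEAD4 (ENSG00000197905, chromosome 12, 2959330 to 3040676, plus strand) had 14.65, 15.44 and 16.38 FPKM in siGSE1 cells, against 12.85, 12.60 and 12.84 in control cells. The control libraries were nearly level and all siGSE1 libraries lay above them, and the log2 fold change was 0.26 with an SE of 0.07 (edgeR adjusted p = 0.0220). The call was lost without siGSE1 replicate 2 (adjusted p = 0.0674), siGSE1 replicate 3 (0.112) or control replicate 3 (0.0558).

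TEAD2 and TEAD3, the other factors of the family, did not pass the test. TEAD2 had 8.50, 10.09 and 7.65 FPKM in siGSE1 cells and 9.74, 9.39 and 10.64 in control cells (log2 fold change -0.20, edgeR adjusted p = 0.152), and the groups overlapped. TEAD3 had 4.74, 4.34 and 4.59 FPKM in siGSE1 cells and 3.63, 3.62 and 4.08 in control cells (log2 fold change 0.25, edgeR adjusted p = 0.115), with no overlap. The 4 TEAD genes summed to 58.3 ± 1.33 FPKM in siGSE1 cells and 55.7 ± 3.61 in control cells (SD, n = 3 each). TEAD4 made up 25.5% to 28.4% of the sum in siGSE1 cells and 21.5% to 23.8% in control cells, and TEAD1 50.6 ± 0.77% in siGSE1 cells and 52.4 ± 1.26% in control cells. The ratio of TEAD1 to TEAD4 averaged 1.91 ± 0.13 in siGSE1 cells and 2.29 ± 0.19 in control cells (SD, n = 3 each, exact two-sided permutation p = 0.1, adjusted 0.167).

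**Figure D3:**
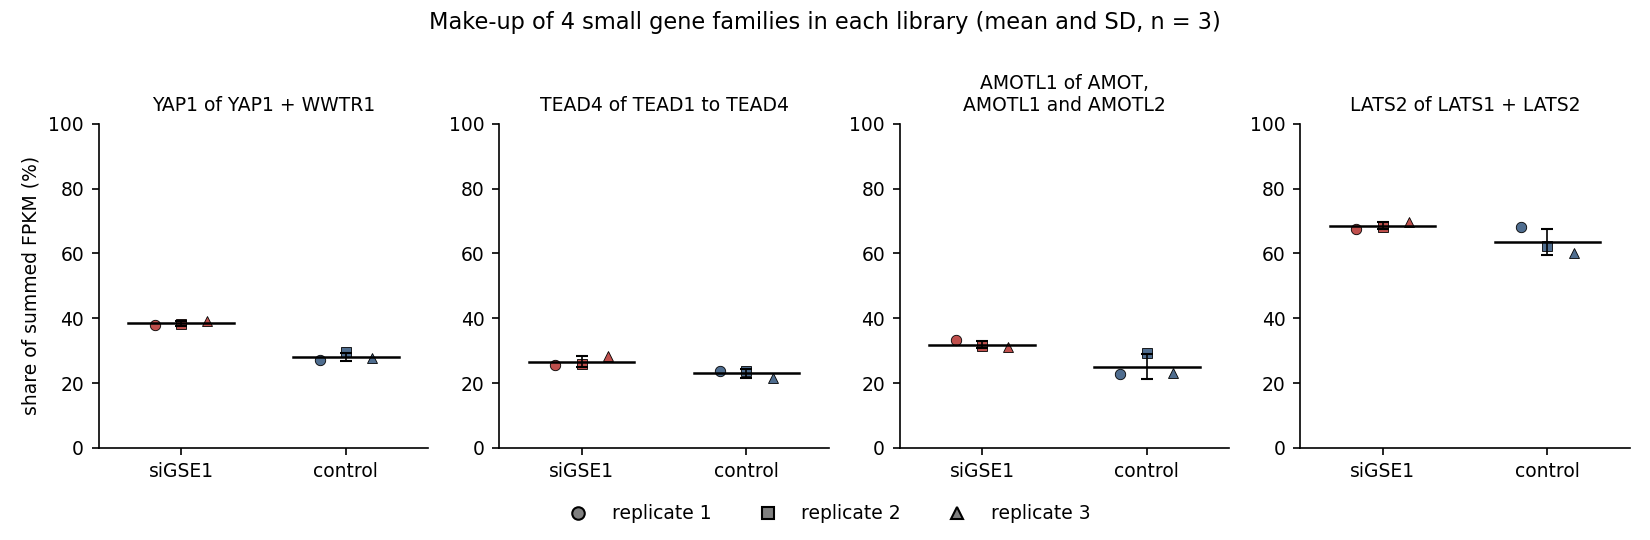
Share of the summed FPKM (percent, vertical axes) held by YAP1, TEAD4, AMOTL1 and LATS2 within their families in each library, with the mean and SD of the 3 siGSE1 and the 3 control libraries. The YAP1 share is 37.8% to 39.1% in siGSE1 cells and 27.0% to 29.5% in control cells, while the LATS2 shares of the groups overlap.

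Among the classical target genes, CCN1 rose and CCN2 and ANKRD1 did not pass. CCN1 (formerly CYR61; ENSG00000142871, chromosome 1, 85580761 to 85584589, plus strand) encodes a secreted matricellular protein and had 16.24, 15.28 and 18.92 FPKM in siGSE1 cells, against 12.41, 8.95 and 11.81 in control cells. All siGSE1 values were above all control values, and control replicate 2 was the lowest library. Its change on the log2 scale, 0.58 (SE 0.11, 95% interval 0.36 to 0.81, edgeR adjusted p = 0.00108), was the largest of the 10 genes in size, and 9.36% of all genes tested had a change at least as large in either direction. Without control replicate 2 it was 0.45 (adjusted p = 2.71e-05).

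CCN2 (formerly CTGF; ENSG00000118523, chromosome 6, 131948176 to 131951372, minus strand), a relative of CCN1 and a matricellular protein as well, had 16.06, 18.86 and 17.91 FPKM in siGSE1 cells, against 13.63, 15.13 and 16.13 in control cells. The lowest siGSE1 library lay just below the highest control library. Its log2 fold change was 0.22 (SE 0.08, 95% interval 0.05 to 0.38), with an unadjusted p of 0.0153 and an adjusted p of 0.0674 in edgeR, which misses the threshold. It passed with TPM scaling (adjusted p = 0.0263), with GC and length trends removed (0.0344), without siGSE1 replicate 1 (0.0492) and without control replicate 2 (0.0466). Its promoter is the one printed above with 3 TEAD cores. The ratio of CCN2 to CCN1 averaged 1.06 ± 0.16 in siGSE1 cells and 1.38 ± 0.30 in control cells (SD, n = 3 each), and the groups overlapped (exact two-sided permutation p = 0.2, adjusted 0.2).

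ANKRD1 (ENSG00000148677, chromosome 10, 90912096 to 90921087, minus strand), which encodes a nuclear ankyrin-repeat protein, had the lowest mean of the 10 in each group. It had 3.38, 4.91 and 4.46 FPKM in siGSE1 cells, against 5.14, 4.63 and 4.48 in control cells. The groups overlapped, and siGSE1 replicate 1 was the low library. It had 106 to 189 counts per library and the widest interval of the 10, around a log2 fold change of -0.19 (SE 0.15, 95% interval -0.51 to 0.14, edgeR adjusted p = 0.443), which spans folds of 0.702 to 1.10.

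The angiomotin-like genes encode scaffold proteins of cell junctions and actin that bind YAP and promote its retention. AMOTL2 (ENSG00000114019, chromosome 3, 134355874 to 134375479, minus strand), also a YAP target, had 25.73, 26.67 and 28.38 FPKM in siGSE1 cells, against 36.52, 31.62 and 38.35 in control cells. No siGSE1 value reached the lowest control value, which was that of control replicate 2. Its log2 fold change was -0.42 (SE 0.07, 95% interval -0.56 to -0.28, edgeR adjusted p = 3.51e-04), and -0.50 without that library. AMOTL1 (ENSG00000166025, chromosome 11, 94706431 to 94876748, plus strand) had 12.91, 12.41 and 12.86 FPKM in siGSE1 cells, against 10.86, 13.33 and 11.59 in control cells. The siGSE1 libraries lay close together within the control range (log2 fold change 0.07, 95% interval -0.07 to 0.21, edgeR adjusted p = 0.525), and without control replicate 2, the highest library, the change was 0.16 and passed (adjusted p = 0.0408).

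AMOT itself was near the floor at 0.27 to 0.30 FPKM in siGSE1 cells and 0.28 to 0.36 in control cells. The 3 angiomotin genes together came to 39.9 ± 1.37 FPKM in siGSE1 cells and 47.7 ± 2.46 in control cells (SD, n = 3 each). AMOTL2 was 1.99, 2.15 and 2.21 times as abundant as AMOTL1 per length in siGSE1 cells, against 3.36, 2.37 and 3.31 times in control cells (exact two-sided permutation p = 0.1, adjusted 0.167). These ratios did not overlap, and control replicate 2 was again the control library nearest to the siGSE1 cells.

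LATS2 (ENSG00000150457, chromosome 13, 20973036 to 21061586, minus strand), the kinase that phosphorylates YAP and TAZ and is induced by them, had 6.27, 7.13 and 6.97 FPKM in siGSE1 cells, against 5.10, 4.54 and 4.66 in control cells. All siGSE1 libraries were above all control libraries, with a log2 fold change of 0.48 (SE 0.08, 95% interval 0.31 to 0.65, edgeR adjusted p = 5.01e-04), a 1.40-fold increase. Its paralog LATS1 had 3.00, 3.31 and 3.02 FPKM in siGSE1 cells and 2.39, 2.75 and 3.07 in control cells, which overlapped (log2 fold change 0.17, edgeR adjusted p = 0.231). LATS1 and LATS2 summed to 9.90 ± 0.59 FPKM in siGSE1 cells and 7.50 ± 0.22 in control cells (SD, n = 3 each). The ratio of LATS2 to LATS1 was 2.18 ± 0.11 in siGSE1 cells and 1.77 ± 0.32 in control cells, with overlap (exact two-sided permutation p = 0.2, adjusted 0.2), so a difference between the paralogs' changes was not shown.

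Per length, 3 genes stood above the rest in both groups. In siGSE1 cells TEAD1 (29.5 FPKM), AMOTL2 (26.9) and WWTR1 (24.6) led, and in control cells AMOTL2 (35.5), WWTR1 (30.2) and TEAD1 (29.2) did. The values of these 3 were apart in siGSE1 cells, while those of TEAD1 overlapped both of the others in control cells. Next came CCN2, CCN1, TEAD4, YAP1 and AMOTL1 in siGSE1 cells and CCN2, TEAD4, AMOTL1, YAP1 and CCN1 in control cells. They spanned means of 12.7 to 17.6 FPKM in siGSE1 cells and 11.1 to 14.96 in control cells. Neighbours overlapped in siGSE1 cells except YAP1 and AMOTL1, and in control cells except CCN2 and TEAD4. LATS2 and ANKRD1 were lowest, at 6.79 and 4.25 FPKM in siGSE1 cells and at the nearly equal 4.77 and 4.75 in control cells. Of the 10 genes, 7 carry a process term naming hippo signaling in the deposited annotation, as do 42 genes of the table.

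The 5 genes known as YAP targets deviated from the control mean in different ways. On the TMM-scaled log2 CPM scale, CCN1 and LATS2 were 0.37 to 0.77 above the control mean in every siGSE1 library and AMOTL2 was 0.34 to 0.48 below it. CCN2 deviated by 0.08, 0.30 and 0.24 and ANKRD1 by -0.50, 0.02 and -0.11 in siGSE1 replicates 1, 2 and 3. Within the control group, replicate 2 was low for CCN1 (-0.29) and AMOTL2 (-0.16) and high for AMOTL1 (0.16). A list of targets of TGF-beta signaling, a pathway that shares CCN1 and CCN2 as targets, had a median of -0.35 in that library. The list median was 0.64 to 0.69 in siGSE1 cells and 0.16 and 0.25 in control replicates 1 and 3. These targets were chosen with their behaviour in these libraries already known. The list member FN1 went the other way, with 230.91 FPKM in control replicate 2, against 152.5 and 152.32 in control replicates 1 and 3. Whether this bears on CCN1 was not tested.

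**Figure D4:**
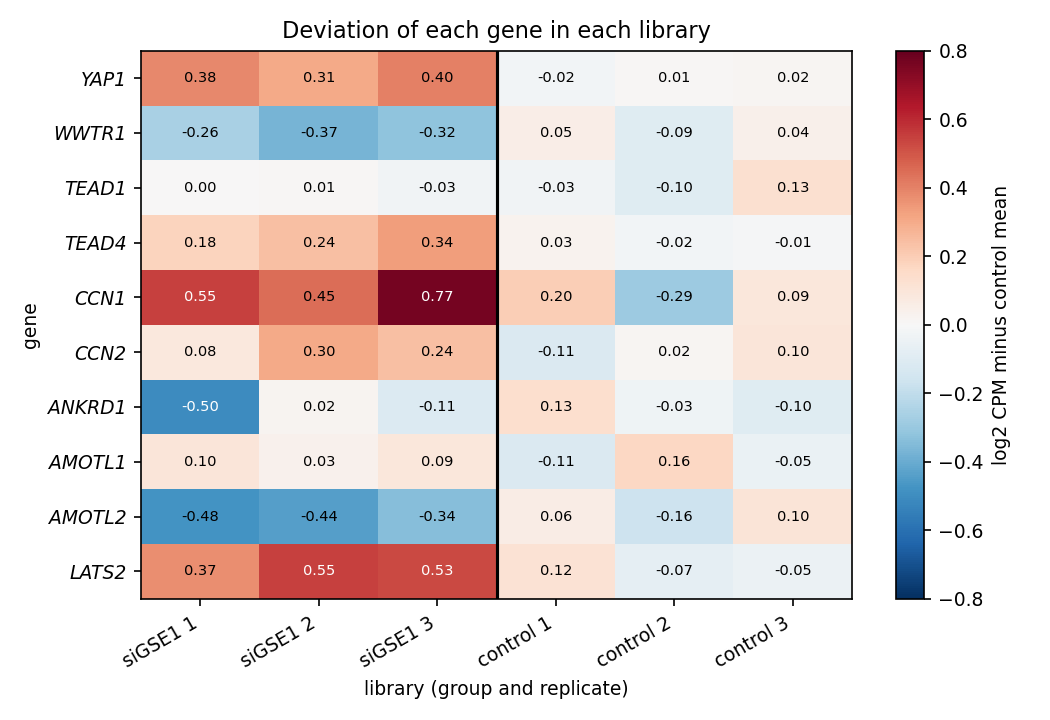
Log2 CPM minus the control mean of the same gene, for the 10 genes (rows) in each library (columns), with siGSE1 libraries left of the line and the value in each cell. CCN1 ranges from -0.29 in control replicate 2 to 0.77 in siGSE1 replicate 3, and ANKRD1 is at -0.50 in siGSE1 replicate 1.

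The genes with the profile most like that of CCN1 over the 6 libraries, by the root mean square difference of these deviations among 11225 genes, were LBH (0.061), the fibronectin receptor subunit gene ITGA5 (0.069) and the cochaperone gene DNAJB2 (0.071). LBH had 55.22, 56.63 and 60.71 FPKM in siGSE1 cells and 43.06, 30.53 and 40.04 in control cells. For CCN2 they included ZFAND3 (0.031) and CHRAC1 (0.042), and for ANKRD1 they were PLEKHO2 (0.057), TRIM39 (0.071) and RBM45 (0.072). None of these nearest genes was one of the 10. With 6 libraries and so many genes, close profiles are common, and the distances are a description.

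Of 21 tested kinases and upstream regulators of the pathway, 5 were higher and 2 lower, against 10.9% and 9.02% of all genes. The other 14 did not pass, and the median log2 fold change was 0.09, against 0.00 over all genes. The polarity scaffold gene DLG5 had 16.22, 15.82 and 16.56 FPKM in siGSE1 cells, against 11.37, 12.82 and 11.47 in control cells (log2 fold change 0.42, SE 0.06, edgeR adjusted p = 1.02e-04). MAP4K4, a kinase that can activate LATS beside MST1 and MST2, had 15.63, 14.71 and 15.20 FPKM in siGSE1 cells, against 11.74, 11.73 and 11.42 in control cells (log2 fold change 0.36, SE 0.05, edgeR adjusted p = 1.61e-04). The groups were apart for both genes. The atypical cadherin FAT4, at a low 0.43 to 0.51 FPKM in siGSE1 cells and 0.22 to 0.32 in control cells, was higher too (0.82, adjusted p = 0.00271), though not with limma on log2(FPKM + 0.1) (0.0516). MOB1A, the LATS cofactor, was lower, with 22.48, 21.93 and 19.89 FPKM in siGSE1 cells, against 25.05, 24.36 and 26.18 in control cells (log2 fold change -0.26, SE 0.06, edgeR adjusted p = 0.00481).

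The MST kinase genes STK3 (-0.06) and STK4 (0.06) and their scaffold SAV1 (-0.07) had log2 fold changes near 0, named after their values were seen. STK3 averaged 1.45 ± 0.07 FPKM in siGSE1 cells and 1.48 ± 0.17 in control cells, and STK4 averaged 5.60 ± 0.34 FPKM in siGSE1 cells and 5.29 ± 0.28 in control cells (SD, n = 3 each). The remaining calls were NF2 (0.27, adjusted p = 0.0234) and FRMD6 (0.46, adjusted p = 0.0308), membrane-linked activators, which were higher, and the kinase TAOK3 (-0.26, adjusted p = 0.0152), which was lower. NF2 lost its call in 6 of 17 alternatives, among them those without siGSE1 replicate 2 (0.127) or 3 (0.106) or control replicate 3 (0.0584). FRMD6 lost it in 8, among them those without siGSE1 replicate 1 (0.107), 2 (0.11) or 3 (0.0738). TAOK3 lost it in 6, among them those without siGSE1 replicate 1 (0.0524) or 3 (0.0887). The 5 higher became 8 with TPM scaling, 2 with limma on log2(FPKM + 0.1) and 3 without siGSE1 replicate 2 or 3. Over all genes, the 1730 higher became 2544, 1439, 1158 and 1049 in these fits. The 2 lower became 1 with TPM scaling, with limma and without siGSE1 replicate 1 or 3. Over all genes, the 1437 lower became 929, 887 to 1104, 966 and 814 in these fits.

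Of 12 tested genes listed as inhibitors of the kinase cascade, 2 were higher and 3 lower, against 10.9% and 9.02% of all genes. The other 7 did not pass, and the list median was -0.04. MOB4 and STRN, subunits of the STRIPAK phosphatase complex that acts on MST kinases, were among the 3 lower. MOB4 had 6.75, 6.86 and 6.53 FPKM in siGSE1 cells, against 9.54, 8.50 and 8.28 in control cells (log2 fold change -0.41, edgeR adjusted p = 0.00165), and STRN had a log2 fold change of -0.20 (adjusted p = 0.0472). The STRN call was lost in 13 of 17 alternatives, among them the fits without siGSE1 replicate 1 (0.146), 2 (0.0636) or 3 (0.18) and without control replicate 1 (0.171) or 3 (0.094). LIMD1, a LIM protein that binds LATS, had 4.02, 3.70 and 3.63 FPKM in siGSE1 cells, against 4.36, 4.92 and 4.79 in control cells (log2 fold change -0.34, edgeR adjusted p = 0.00238), and it missed the threshold with limma on log2(FPKM + 1) (0.0511). All siGSE1 values of MOB4 and LIMD1 lay below the control values. STRIP2, a STRIPAK scaffold, was higher (log2 fold change 0.24, adjusted p = 0.0128), a call lost without siGSE1 replicate 1 (0.0689) or 2 (0.0526). TNIK, a kinase related to MAP4K4 and so no plain inhibitor, was higher (0.43, adjusted p = 0.0424), but 9 of 17 alternatives lost that call, among them the fits without siGSE1 replicate 1 (0.0832) or 3 (0.225) and without control replicate 1 (0.145) or 3 (0.122). Its groups overlapped. In those fits the list's 2 higher became 1, and without siGSE1 replicate 1 neither STRIP2 nor TNIK was called. Over all genes, 1049 to 1495 were higher in these fits without 1 library, against 1730 in the test as run.

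A pair of cofactors that bind TEAD were higher. VGLL3, a vestigial-like protein that binds TEAD, had 3.16, 3.42 and 3.24 FPKM in siGSE1 cells, against 1.94, 1.83 and 1.81 in control cells. The groups were far apart against their spread, and the log2 fold change was 0.79 with an SE of 0.07 (edgeR adjusted p = 2.54e-06), above that of any of the 10 genes. VGLL4, which opposes YAP by occupying TEAD, had 4.22, 4.11 and 4.33 FPKM in siGSE1 cells, against 2.66, 3.25 and 3.16 in control cells (log2 fold change 0.46, SE 0.09, edgeR adjusted p = 0.00150). VGLL1 and VGLL2 had a value of 0 in all 6 libraries. With TEAD2 and TEAD3, 2 of the 4 tested genes of this list were higher and 0 lower by edgeR, against 10.9% and 9.02% of all genes. The other 2 did not pass, with unadjusted p in edgeR of 0.0494 (TEAD2, lower in siGSE1) and 0.0329 (TEAD3, higher). Without siGSE1 replicate 2, TEAD2 was called lower (adjusted p = 0.0463).

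The other genes of a published signature of 22 YAP and TAZ targets went in both directions. Of 17 beyond those already described, 3 were higher and 2 lower, against 10.9% and 9.02% of all genes. The other 12 did not pass, and the median log2 fold change of the 17 was 0.19. The ecto-nucleotidase gene NT5E had 30.58, 30.33 and 30.06 FPKM in siGSE1 cells, against 19.62, 17.02 and 20.85 in control cells (log2 fold change 0.64, SE 0.07, edgeR adjusted p = 6.34e-06). CCDC80, a matrix protein, had 6.06, 6.64 and 6.10 FPKM in siGSE1 cells, against 3.93, 2.68 and 3.65 in control cells (log2 fold change 0.85, SE 0.10, edgeR adjusted p = 2.86e-05). Both were higher in every siGSE1 library than in any control library. MYOF, a membrane repair protein, had 66.63, 69.94 and 70.45 FPKM in siGSE1 cells, against 90.53, 78.38 and 88.62 in control cells (log2 fold change -0.34, SE 0.06, edgeR adjusted p = 6.20e-04). CRIM1, a transmembrane protein that binds BMPs, had 98.42, 100.14 and 100.03 FPKM in siGSE1 cells, against 114.39, 109.96 and 116.59 in control cells (log2 fold change -0.22, edgeR adjusted p = 0.00392). Both were lower in every siGSE1 library.

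Taking in CCN1, CCN2, ANKRD1, AMOTL2 and LATS2, 5 of the 22 signature genes were higher, 3 lower and 14 did not pass. So 36.4% were called, against 19.9% of all genes, with a median log2 fold change of 0.19. Without those 5 genes, 5 of the 17 were called. The genes were chosen with earlier results of these data known, so these shares are a description. Over all genes, 1730 were higher in the test as run, 1466 without control replicate 3, 2544 with TPM scaling and 1890 with low counts kept. DESeq2 called 1486 higher, limma 1173 to 1440, and the fits without 1 siGSE1 library 1049 to 1194. The 3 higher among the 17 became 5 without control replicate 3 and 6 with TPM scaling or with low counts kept. They became 2 with DESeq2, with limma or without any 1 of the siGSE1 libraries. The third of them was the receptor kinase gene AXL, with 48.33, 50.01 and 53.33 FPKM in siGSE1 cells, against 43.96, 31.54 and 45.60 in control cells, where control replicate 2 was again the low library (log2 fold change 0.30, edgeR adjusted p = 0.0396). AXL lost its call in 8 of 17 alternatives, among them the fits without siGSE1 replicate 1 (adjusted p = 0.0751), 2 (0.101) or 3 (0.181).

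**Figure D5:**
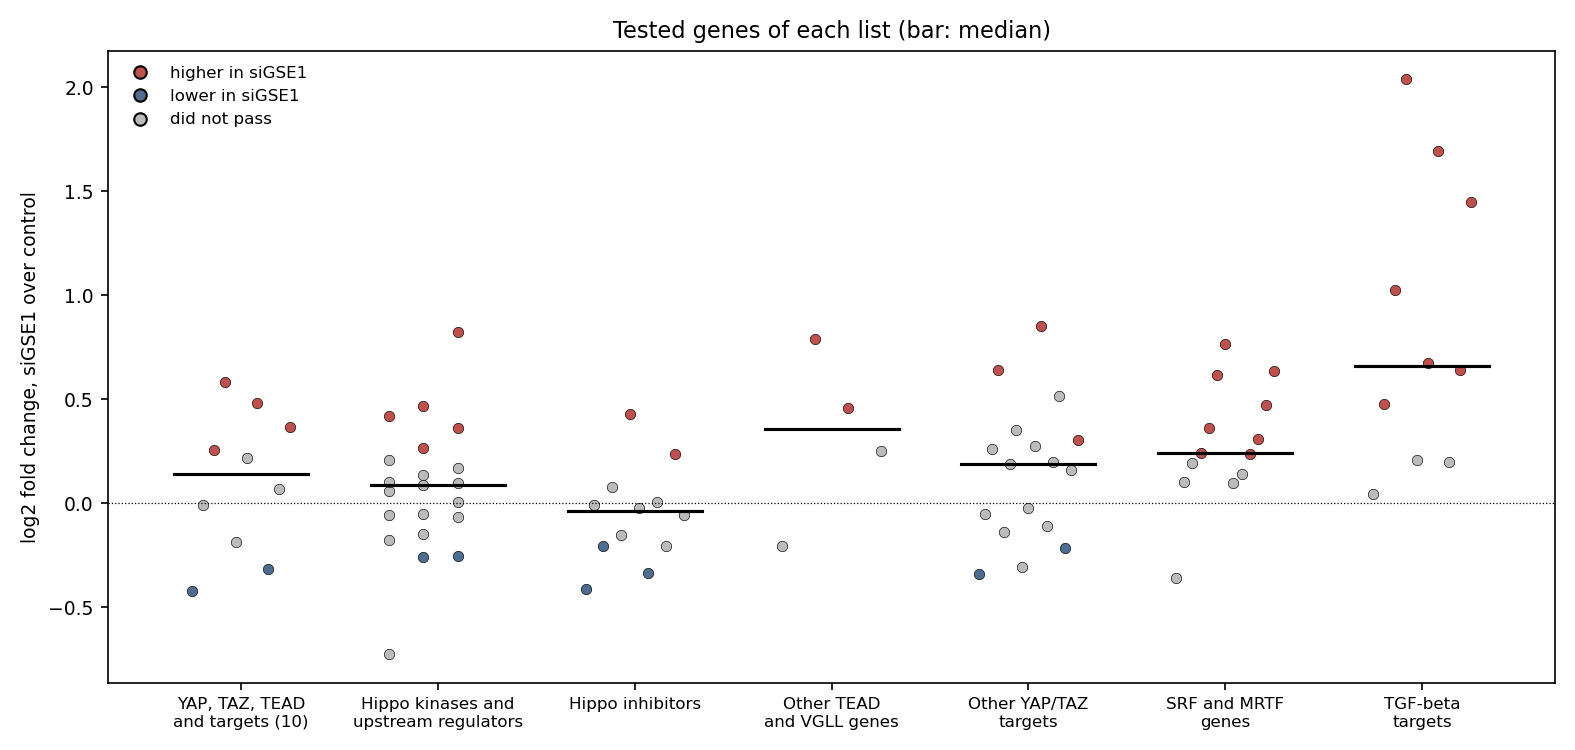
Log2 fold change of siGSE1 over control (vertical axis) for every tested gene of the 10 genes and of 6 related lists, coloured by call, with a bar at each median. The medians run from -0.04 for the inhibitors to 0.66 for TGF-beta targets.

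SRF with its coactivators MRTFA and MRTFB, and TGF-beta signaling, act on several of the same targets as YAP, and their genes are given beside the 10. Both lists were chosen with earlier results of these data known, so their shares are a description. Of 13 tested SRF and MRTF genes, edgeR called 8 higher and 0 lower, against 10.9% and 9.02% of all genes. The other 5 did not pass, and the median log2 fold change was 0.24, against 0.00 over all genes. Without siGSE1 replicate 2 or 3, 5 of the list were higher, as were 1158 and 1049 of all genes, against 1730 in the test as run. MRTFA had 12.01, 12.68 and 12.24 FPKM in siGSE1 cells, against 8.67, 8.37 and 9.17 in control cells (log2 fold change 0.47, edgeR adjusted p = 2.92e-05). The cytoskeletal genes ACTB (0.36), TPM1 (0.77) and ACTA2 (0.61) were higher too, although TPM1 was not called with a robust prior in edgeR (adjusted p = 0.0876). Of 10 TGF-beta targets, chosen with their behaviour in these libraries already known, edgeR called 7 higher and 0 lower, against 10.9% and 9.02% of all genes. The other 3 did not pass, and the median was 0.66. Those called higher included ITGB6 (2.04), COL5A1 (1.70), PMEPA1 (1.45) and LTBP2 (1.02), and PMEPA1 lost its call under the robust prior (adjusted p = 0.0742). In both lists 0 genes were called lower by DESeq2 or limma. Over all 15937 genes, DESeq2 called 1346 lower and the limma fits 887 to 1104. At an unadjusted p under 0.05 in edgeR 0 were lower, a share not counted over all genes. The part of both lists in the changes of CCN1 and of the other shared targets was not tested.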

How the data were processed

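Whole-number read counts and FPKM per library were deposited by the authors in one table of 60612 genes with exonic lengths. Dividing counts by exonic length and library total gave back the deposited FPKM in 100% of values, within 0.0051. Per the submitters' processing notes, HISAT2, StringTie 1.3.3b, HTSeq and edgeR were among the tools, on hg38, whereas the series text names STAR and DESeq2. No source used here states whether counting used strand.

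Counts were tested with edgeR 4.0.16 (R 4.3.3): filterByExpr (minimum count 10, minimum total 15), TMM scaling, a group-only model and Benjamini-Hochberg adjustment. SE is the absolute log2 fold change over the square root of F, and intervals use 15.8 degrees of freedom. Fold changes are TMM-scaled and FPKM are not.  Alternatives used DESeq2 1.42.0 and limma 3.58.1. Log2 CPM used a prior count of 2, and genes compared by profile had a mean of at least 5 CPM.

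The 10 genes and all lists were chosen with earlier results of these data known. Named genes were the 10, up to 4 passing genes per list with the smallest adjusted p, and the 3 nearest profiles of each target gene, of which 1 is not reported here. Others (TEAD2, TEAD3, LATS1, AMOT, the MST genes, NF2, FRMD6, TAOK3, STRN, AXL, cell type markers) were added after their values were seen.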

Additional observations from a re-analysis of the deposited data

How the results depend on the processing

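The calls of YAP1, CCN1 and LATS2 (higher) and of WWTR1 and AMOTL2 (lower) held in all 17 alternatives, with log2 fold changes of 0.32 to 0.43, 0.45 to 0.69, 0.39 to 0.55, -0.36 to -0.26 and -0.50 to -0.36. TEAD4 ranged from 0.21 to 0.32 (0.21 to 0.29 when 1 library was left out) and lost its call in 3 fits that left out a library, named above. CCN2 ranged from 0.16 to 0.28 and was called in 4 alternatives, with TPM scaling (0.28), after GC and length were regressed out (0.25, chosen after seeing the data), and in 2 fits without a library (0.16 to 0.27 over all such fits). AMOTL1 ranged from 0.011 to 0.16 and was called without control replicate 2. ANKRD1 stayed uncalled, between -0.30 and -0.05. TEAD1 stayed uncalled and turned positive with no scaling factors (0.016), TPM scaling (0.053), no low-count filter (4.08e-04), limma on log2(FPKM + 1) (0.018), on log2(FPKM + 0.1) (0.018) and on quantile-normalized values (4.69e-04), and ranged from -0.056 to 0.048 when 1 library was left out. Over all genes, 1730 were higher and 1437 lower. The lower count was 929 with TPM scaling, 887 with limma on log2(FPKM + 1) and 909 on log2(FPKM + 0.1). Leaving out 1 library gave 1049 to 1914 higher and 814 to 1648 lower, the smallest of both without siGSE1 replicate 3, and 897 lower without siGSE1 replicate 2. Of the 76 tested genes in the 6 related lists, 27 were higher and 7 lower (44.7% called, against 19.9% of all genes). The lists were chosen with earlier results of these data known, so this share is a description. Among these 76, limma on log2(FPKM + 1) called 4 lower. The 10 genes numbered 3 to 6 higher and 2 lower throughout. The ratios of related genes kept their direction in all 8 alternatives each. With the replicate block, 4 of the 10 were higher and 2 lower, 1715 and 1382 of all genes were, with no changed call among the 10, while TNIK and STRN missed the threshold (adjusted p = 0.0543 and 0.0673). Same-numbered libraries are tied by a number in the labels, which do not say whether they were handled together. Their deviations correlated at -0.0217, 0.00265 and 0.0502 over 11226 genes, and none correlated best with its own number. The cause of these dependences was not tested. Among the 10 genes, ANKRD1 had the fewest counts, 106 to 189 a library, and the largest SE.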
